A study of Mus musculus with 2 samples.

Results

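Single-exon genomic models are transcript models that lie within a gene on its strand, hold 1 exon and match no annotated transcript of that gene. Members were all such models (novelty class Genomic) with 5 or more reads in a library, in any gene other than Cyp11a1. Of 65815 models with reads in replicate 1 and 99180 in replicate 2, 654 and 1348 were members, with 8716 and 19548 reads. Merged by gene they fell in 1466 genes, of which 1409 were annotated, out of 16400 annotated genes with reads. The other 57 genes are not in the annotation, hold 62 of the models, and were not placed. The read counts themselves chose the members, so their numbers of reads are given as a description.

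The data are long-read sequencing of total RNA from adrenal glands taken at 25 days from females of the strain B6CASTF1/J, F1 hybrids between C57BL/6J and CAST/EiJ. There is 1 group of 2 libraries, labelled biological replicates 1 and 2, and no treatment, so the only comparison is between the libraries. One label field names the same animal for both libraries and another names a different animal for each; the replicate numbers are followed here, and p-values measure only the difference between these libraries. Replicate 1 held 426150 reads and replicate 2 held 770041. Steroidogenic and chromaffin genes that define the gland were well read, among them Cyp21a1 with 6764 and 11972 reads and Chga with 1916 and 3799.

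A long read that begins inside the last exon of a messenger RNA crosses no splice junction. Annotation programs then cannot tell which isoform it came from, and sort it by where its start and end fall. In general, reads of this kind can come from RNA cut short, from copies that stopped before the cap, from RNA that still holds its introns, or from true short transcripts. Near its 3′ end a messenger RNA usually carries a poly(A) signal, most often AAUAAA, which directs cleavage and the addition of the tail.

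Members were chosen by their read counts, 5 or more reads in a library, among single-exon models of class Genomic. The last 30 bases of models in the most read genes are shown first. They are written in the sense of the gene from the GENCODE M21 transcripts (mm10), with the signal AATAAA in capitals. The first 5 models ended exactly at an annotated transcript end, as did that of Cyp21a1, and the Cyp11b1 and Star models ended inside the last exon. In Cyp21a1 and in Star of replicate 1 the signal lies in the last 50 bases but begins before the bases shown, and the last 50 bases of the Cyp11b1 model held neither AATAAA nor ATTAAA. The Slc25a5 model of replicate 2, not shown, ended at another annotated end, 254 bases from that of replicate 1. Its last 50 bases held neither signal.
Hsd3b1, replicates 1 and 2, chr3:98852194-98852223, minus strand: aaaaacagcAATAAAtattgtaatgcctta
Kcnk3, replicates 1 and 2, chr5:30625242-30625271, plus strand: cctAATAAAtgctgtccatggagaccaggc
Apoe, replicates 1 and 2, chr7:19696267-19696296, minus strand: ttgcttAATAAAgattctccgagcacattc
Chga, replicates 1 and 2, chr12:102564999-102565028, plus strand: aaggaagAATAAAgtgctttgggctctttg
Slc25a5, replicate 1, chrX:36798778-36798807, plus strand: aaattgaagaAATAAAaatacccaaaacca
Cyp21a1, replicates 1 and 2, chr17:34801348-34801377, minus strand: ataaatggtctcttcagatttcctcagcaa
Cyp11b1, replicates 1 and 2, chr15:74834871-74834900, minus strand: ttacatacaatagaaacagacatgtttttg
Star, replicate 1, chr8:25815281-25815310, plus strand: aaaagcagttgtcactggcattctgatacc
Star, replicate 2, chr8:25815268-25815297, plus strand: cttatattttAATAAAagcagttgtcactg

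Most member reads lay in the last exon of their gene. Each model was placed by the class that held most of its bases. Last exons held 80.3% of member reads in replicate 1 (95% Wilson interval 79.4 to 81.1) and 79.8% in replicate 2 (79.3 to 80.4), which averaged 80.1% ± 0.325 (SD, n = 2). Introns held 14.4% and 13.9%, and sequence past the annotated end of the gene held 2.92% and 2.66%. Other exons held 1.84% and 2.99%, and sequence before the annotated start 0.511% and 0.613%. Introns took the second place in both libraries, well below the last exon. By gene, 1091 of the 1409 annotated genes had most member reads in the last exon, 240 in an intron, 35 in another exon, 29 past the end and 14 before the start. Protein-coding genes made up 1318 of them, antisense genes 44 and lincRNA genes 23.

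Models that missed the read minimum lay in introns more often. Among single-exon Genomic models with under 5 reads, introns held 28.3% of reads in replicate 1 and 35% in replicate 2, and last exons held 66.7% and 59.4%. Just inside the minimum, 161 and 302 models had 5 reads, and 75.9% and 74.3% of them lay in last exons. Just outside it, 249 and 463 models had 4 reads, of which 83.3% and 70.9% lay in last exons.

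**Figure D1:**
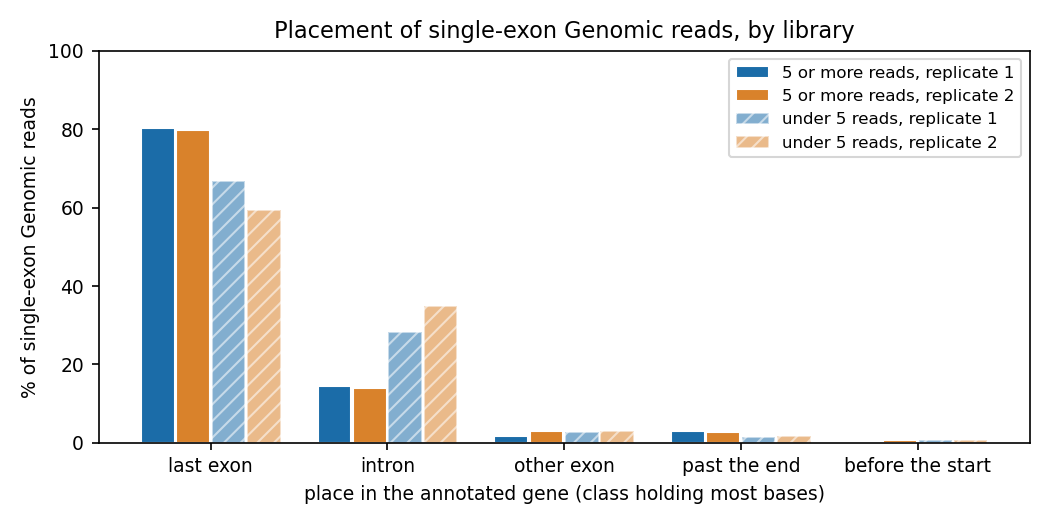
Percent of single-exon Genomic reads by place in the gene (x axis), for models with 5 or more reads (solid) and under 5 reads (hatched), in replicate 1 (blue) and replicate 2 (orange). Last exons hold about 80% of member reads in both libraries (80.3% and 79.8%), and the intron share is higher below the minimum (28.3% and 35%).

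The deposited boundaries mark places along the gene and not always the extent of a read. Of the 1940 members in annotated genes, 185 were under 50 bases long, and these held 3459 reads. The Hsd3b1 model of replicate 2 spanned 3 bases and was assigned 742 reads, and the Cyp11b1 and Slc25a5 models of replicate 2 spanned 1 base each with 190 and 111 reads. In Cyp11b1 of replicate 1 a model with 90 reads began at base 74834989 of chromosome 15, the base at which another model with 7 reads ended. Lengths are therefore not read as lengths of RNA, nor exact ends as measured ends of RNA. The median length over all 1940 models was 1008 bases (quartiles 285 and 2046).

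Most deposited 3′ ends of last-exon members lay at annotated ends, and few of their starts lay at the first base of a last exon. Of 1501 last-exon models, 1279 (85.2%) ended at the exact base of an annotated transcript end of the gene, and 89.1% lay wholly inside a last exon. Within 50 bases of such an end were the ends of 1301. Whether the deposited ends were measured from reads or taken from the annotation was not tested. At the other end, 79 of the 1501 (5.26%) began at the first base of a last exon. Single-exon models of another class are the incomplete splice matches. Of 733 such models with 5 or more reads in a last exon, 690 (94.1%) began at its first base. Models without a junction are sorted into classes by where their starts and ends fall. The contrast in starts may therefore be set by the classes, and nothing is read from it. Incomplete splice matches are models whose introns, here none, are part of an annotated chain, and 93.7% of these 733 ended at an annotated end.

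Poly(A) signals stood before most of these ends. The last 50 bases could be read for 1577 of the 1940 members (81.3%), those whose last 50 bases lie in 1 annotated exon. AATAAA or ATTAAA, searched on the gene's strand alone, was found in 81.6% of these in replicate 1 and 79.8% in replicate 2. The share was 85.7% of 1354 models that ended at an annotated end of a last exon and 52.5% of 198 that ended elsewhere in a last exon. Among 1497 annotated transcripts of the same genes with 5 or more reads, 75.8% held a signal in their last 50 bases. A match says only that the letters are there, and at an annotated end they are those of the annotated transcript.

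Runs of A after the end, a known site of false priming by oligo(dT), could be looked for in few models, because genome sequence was not used here. The 20 bases after the end lay in the same annotated exon for 23.4% of members, so a share over all members has no value. It was computed for models ending inside a last exon away from annotated ends, where 193 of 204 had these bases. Of the 193, 29 (15.0%) had 12 or more A in the 20 bases, with a median of 5 A. By library this was 7.58% in replicate 1 and 18.9% in replicate 2. In models under 5 reads from the same genes, 24 of 213 (11.3%) did, which lies between the values of the libraries. Whether such priming gave rise to any member was not tested.

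Single-exon Genomic models of any read number made up 4.36% of the annotated-gene reads in replicate 1 (95% Wilson interval 4.29 to 4.42) and 4.48% in replicate 2 (4.44 to 4.53), which averaged 4.42% ± 0.0902 (SD, n = 2), Cyp11a1 left out. The members alone made up 2.23% and 2.72%. Within genes the share ranged widely. Of 885 member genes with at least 20 reads in each library, the median share was 7.63% (quartiles 3.82 and 15.4), beside 1.52% over all 3925 genes with that many reads. The rule asks for a number of reads, so it favours high shares and highly read genes alike, and this difference is a description. A share of at least 50% was found in 28 of the 885 genes and one under 5% in 311.

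Star had the most member reads. It encodes the protein that brings cholesterol into mitochondria, the limiting step of steroid synthesis. Its members had 438 reads in replicate 1 and 764 in replicate 2, and its single-exon share was 9.50% (8.68 to 10.4) of 4612 reads and 12.1% (11.3 to 12.9) of 6329 reads. The main model began in an intron and ran through the last exon in both libraries, with ends 13 bases apart as the sequences show. They lay 672 and 685 bases short of the annotated end. A further model with the same boundaries in both libraries, 22 and 23 reads, lay mostly in introns (chr8:25808474-25812423).

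Hsd3b1, which converts pregnenolone to progesterone, had 297 and 749 member reads and shares of 8.03% (7.2 to 8.95) and 10.2% (9.49 to 10.9). Annotated transcripts held 50 and 56 of its 3722 and 7390 reads, and against those alone its mean share was 89.4%, beside 9.10% against all of its reads. Its main model ended at the annotated end in both libraries. Cyp21a1, the 21-hydroxylase of the corticosteroid path, had 109 and 257 member reads and low shares of 1.61% and 2.15%. Cyp11b1, the 11β-hydroxylase that makes corticosterone, had 133 and 198 reads and shares of 4.39% and 4.41%, which overlap within their intervals. In replicate 1, 36 of the Cyp11b1 reads lay past the annotated end, in a model of 1508 bases.

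Outside the steroid enzymes, Gabarapl1 had the highest share among the 10 genes with the most member reads. It encodes an autophagy protein that is attached to membranes. It had 167 and 197 member reads, 52.7% (47.2 to 58.1) of 317 reads in replicate 1 and 36.5% (32.6 to 40.7) of 539 in replicate 2, and these intervals do not overlap. The models shared their first base, and the one of replicate 1 ran 305 bases past the annotated end at which the one of replicate 2 stopped. Slc25a5, a mitochondrial ADP/ATP carrier, had 151 and 111 member reads and shares of 35.9% (31.4 to 40.6) and 21% (17.8 to 24.6).

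Apoe, a lipid carrier protein, had 181 and 267 member reads in a model with the same boundaries in both libraries, 25.4% and 22.4% of its reads. Kcnk3, a potassium channel that sets the resting potential of aldosterone-making cells, had 226 and 398 member reads and shares of 15.5% and 14.5%. Its models differed by 2 bases at the start and ended at the same base. Fads2, a fatty acid desaturase, had 104 and 159 member reads, shares of 6.51% and 7.67%, and a different model in each library. The model of replicate 1 lay past the annotated end, reaching 850 bases beyond it, and that of replicate 2 stopped at that end. Chga, the chromogranin of chromaffin granules, had 63 and 164 member reads, or 3.29% and 4.34% of its reads, in models that ran through introns and exons to the annotated end.

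**Figure D2:**
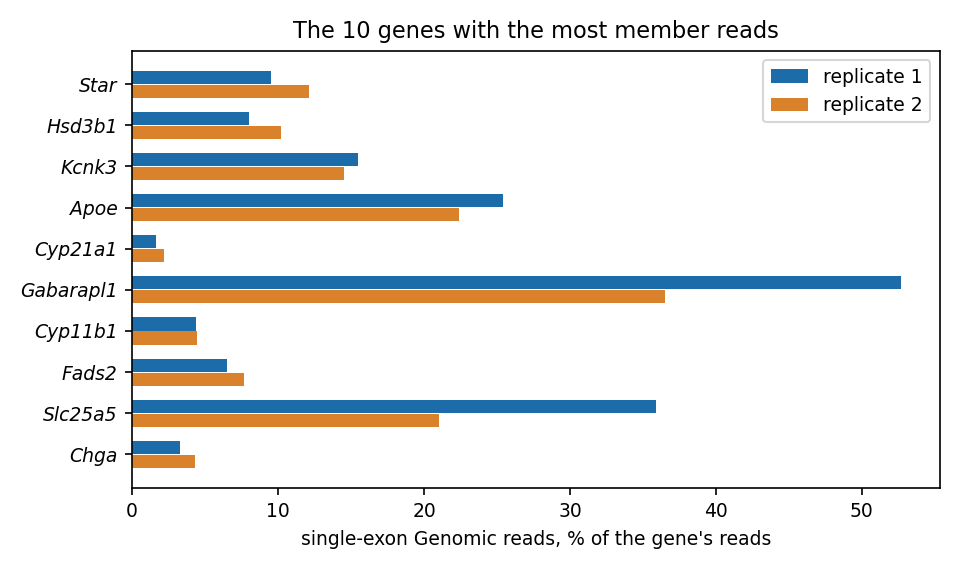
Share of each gene's reads in single-exon Genomic models (x axis, percent) for the 10 genes with the most member reads, in replicate 1 (blue, upper bar) and replicate 2 (orange, lower bar). Gabarapl1 is highest (52.7% and 36.5%) and Cyp21a1 lowest (1.61% and 2.15%).

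The 328 intron models were of several shapes. In 144 both ends fell in an intron, 84 began in an exon and ended in an intron, 56 ran from exon to exon and 29 began in an intron and ended in an exon. Of the 84, 64 began at the start of an annotated transcript of the gene. Over all 328, 91 (27.7%) began at an annotated start, 58 (17.7%) ended at an annotated end, and 90 (27.4%) overlapped an exon of a gene on the opposite strand. The last-exon models overlapped such a gene in 14.3%.

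In several genes most reads came from 1 place in an intron. In Cmss1, 44 of 47 reads in replicate 1 and 41 of 48 in replicate 2 lay in intron models with the same end (chr16:57391139-57391590 in replicate 1). Marf1, which encodes a regulator of meiosis, had 25 of 26 and 49 of 53 reads in single-exon Genomic models. Its intron model had the same boundaries in both libraries, began and ended at the edges of exons, and held 19 and 41 reads (chr16:14131622-14132360). Zc3hav1, an antiviral zinc finger gene, had 24 of 26 and 39 of 46 reads in such models, 23 and 39 of them in an intron model whose ends lay 44 bases apart in the libraries. Over all single-exon Genomic models of the gene, shares in these 3 genes were between 84.8% and 96.2%; the Marf1 intron model alone held the smaller part given above.

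Nckap5 had 17 and 62 member reads, most of them in an intron model with starts at the same base and ends 1 base apart, and shares of 53.7% and 67.0%. Gramd1b, a carrier of sterols between membranes, had 41 and 90 member reads and shares of 36.6% and 45.8%. Its reads were split between a last-exon model with 25 and 40 reads and a model mostly in an intron, with 16 and 50.

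Some of these intron models lay over another annotated gene. An exon of another gene on the same strand was overlapped by 39 of the 328, and a pseudogene by 10 models in 5 genes, with 104 reads in replicate 1 and 164 in replicate 2 of 1244 and 2634 intron reads. The lincRNA AC154200.1 had 53 and 75 reads, all of them in a model of 280 bases over Oaz1-ps (chr17:17345177-17345456). Map3k13, Lyrm4 and Clock had models of this kind with 5 to 17 reads each. Reads of a gene and of its near-identical copies may be split or misplaced by the authors' counting, so these levels are uncertain. Tsix and Xist, the antisense pair of X inactivation, overlapped each other, and their single-exon reads (12 and 27 for Tsix, 9 and 41 for Xist) cannot be told apart unless strand is known.

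Models past the annotated end were few. There were 11 in replicate 1 and 29 in replicate 2, with 252 and 503 reads, and 27 of the 40 (67.5%) overlapped an exon of a gene on the opposite strand. Gm43126, an antisense gene, had the most over both libraries among genes with most member reads there: 58 and 158 reads, all of its reads, in a model that reached 2603 and 2672 bases past its end and overlapped Ccnd2. Gmpr, a purine enzyme gene, had 5 and 25 reads in models reaching 2164 and 2629 bases past its end, over Atxn1. Ywhag, a 14-3-3 protein gene, had a model with 31 reads that stopped at the annotated end in replicate 1 and one with 54 reads that ran past it in replicate 2. Fopnl, a gene for a centriole protein, had the same arrangement, with 21 and 42 reads.

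Most member genes had a single-exon Genomic read in the other library, but 454 of the 1409 annotated ones (32.2%) had a member in both. Over all annotated genes but Cyp11a1, 5131 had a single-exon Genomic read in replicate 1 and 7017 in replicate 2, beside 16400 annotated genes with reads. Of the 625 annotated genes with a member in replicate 1, 562 (89.9%) had a single-exon Genomic read in replicate 2 and 454 (72.6%) a member. Of the 1238 with a member in replicate 2, 1034 (83.5%) had such a read in replicate 1 and 454 (36.7%) a member, at the lower depth of replicate 1. In 420 of those 454 genes (92.5%) most member reads lay in the same place in both libraries. By place in replicate 1 this held for 345 of 363 genes in the last exon and 57 of 64 in an intron, but for 4 of 9 past the end and 3 of 5 before the start. A model of the same gene and place, overlapping by 50% or more of both lengths, was found in replicate 2 for 376 of 640 members of replicate 1 (58.8%), and in replicate 1 for 669 of 1300 members of replicate 2 (51.5%).

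Deposited ends recurred more often than deposited starts. Of 417 genes with 1 member in each library, 318 (76.3%) had the same 3′ end to the base and 175 (42.0%) the same start. The median distance between their starts was 25 bases. These are deposited boundaries, so a match to the base is not read as a match of RNA ends.

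The share of a gene's reads in single-exon Genomic models was compared between the libraries by Fisher's exact test, two-sided, with Benjamini-Hochberg adjustment over all genes with at least 20 reads in each library and at least 1 such read. The test holds counting error only. Of 2695 genes tested, 100 passed the threshold of 0.05 (3.71%), 57 with the higher share in replicate 1 (2.12%) and 43 in replicate 2 (1.60%). Of the 100, 99 were member genes, out of 885 members tested (11.2%); the rule used the same counts, so nothing is read from that share. An unadjusted p under 0.05 was found in 254.

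Most of these genes had no Genomic read of 1 exon at all in 1 of the libraries. This held for 80 of the 100, 37 at 0 in replicate 1 and 43 at 0 in replicate 2. In 76 of the 80 the library at 0 had single-exon reads of the gene in the class of incomplete splice matches. Among all annotated genes but Cyp11a1, 273 of 5131 with single-exon Genomic reads in replicate 1 also had such incomplete splice matches. In replicate 2 this held for 586 of 7017. Having only 1 of these classes in a library was therefore general and is not particular to the 100 genes. With both classes summed, an alternative added after seeing the data, 7 of 3351 genes passed the threshold, 6 of them among the 100. The median difference in share of the 100 genes, without its sign, was 11.4 percentage points by class Genomic alone and 2.82 with both classes summed.

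Nr5a1, the nuclear receptor that drives steroidogenic genes, shows the pattern. It had 0 of 345 reads in class Genomic in replicate 1, which allows a share of up to 0.870%, and 70 of 553 in replicate 2, or 12.7% (10.1 to 15.7), with an adjusted p of 2.5e-13 by Fisher's exact test. Replicate 1 instead had 35 single-exon incomplete splice matches, and replicate 2 had 0. Both classes summed gave 10.1% and 12.7% (adjusted p = 1.0 by Fisher's exact test). The models of both classes ended at the same base.

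Scg2, a granin of chromaffin granules, had the classes the other way round. It had 19 of 499 reads in class Genomic in replicate 1, or 3.81%, and 0 of 1024 in replicate 2, where 42 reads were incomplete splice matches (adjusted p = 1.0e-07 by Fisher's exact test). Both classes gave 3.81% and 4.10%. Ttyh3, which encodes a membrane protein, had 12 of 34 reads in class Genomic in replicate 1 and 0 of 59 in replicate 2, with 38 incomplete splice matches. With both classes its shares were 35.3% and 64.4% (adjusted p = 1.0 by Fisher's exact test).

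The first 30 bases of the models of these 3 genes show where the classes part in these genes. They are in the sense of the gene, from the same source, with no letters in capitals. The incomplete splice match of each begins at the first base of the last exon and the Genomic model further into it, while both end at the same annotated end.
Nr5a1, incomplete splice match of replicate 1, chr2:38694235-38694264, minus strand: atgtgaaattcctgaacaaccacagcctcg
Nr5a1, Genomic model of replicate 2, chr2:38693218-38693247, minus strand: gactagcatcaaagctttctcctgacatct
Scg2, Genomic model of replicate 1, chr1:79436023-79436052, minus strand: ggttagtgaatgctgtgggcagtgggaggt
Scg2, incomplete splice match of replicate 2, chr1:79436989-79437018, minus strand: gaaatctttaagacatggctggagctaagg
Ttyh3, Genomic model of replicate 1, chr5:140621820-140621849, minus strand: gcctaggggtcccagtcggggcatctgtag
Ttyh3, incomplete splice match of replicate 2, chr5:140623502-140623531, minus strand: tacacctccagcatgagagccaaatacctc

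**Figure D3:**
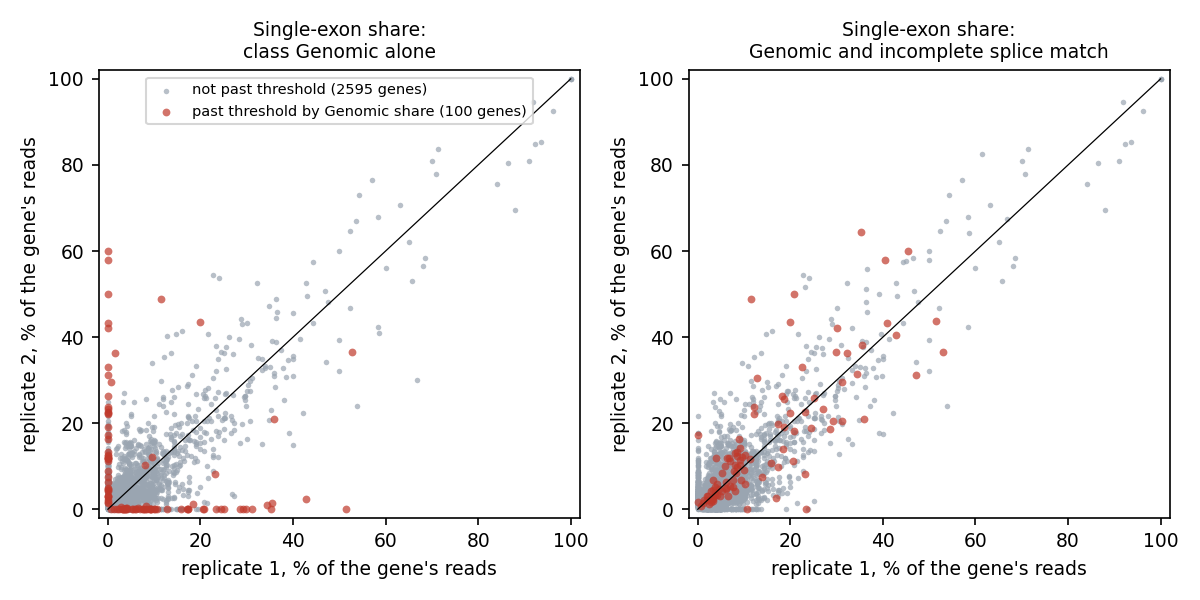
Each point is 1 of 2695 genes, with its share of reads in single-exon models in replicate 1 (x axis) and replicate 2 (y axis), in percent, by class Genomic alone (left) and with incomplete splice matches added (right); red marks the 100 genes past the threshold by class Genomic alone. On the left 80 red points lie on an axis, at 0 in 1 library, and on the right the median distance of the red points from equal shares is 2.82 percentage points, against 11.4 on the left.

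The class with most single-exon reads changed between the libraries in 11 of the 12 genes named for the largest differences by class Genomic. The models were laid out as in the 3 genes above in 4 of the 11, Pygo2, Sdhaf4, Cab39l and Ttyh3. In Tmem160, Slc6a6, Hoxb9 and Nnat the Genomic model began upstream of the incomplete splice match, in Timp3 both began at the same base, and in Timp3, Nnat, Marcks and Ndufaf8 the ends differed. Higher in replicate 1 were Tmem160 (51.5% and 0%), Cab39l (42.9% and 2.38%), Ttyh3, Slc6a6 (35.5% and 1.36%), Marcks (34.4% and 0.952%) and Ndufaf8 (31.2% and 0%). Slc6a6 is the taurine transporter and Marcks a substrate of protein kinase C. Lower in replicate 1 were Pygo2 (0% and 60%), Timp3 (0% and 57.8%), Hoxb9 (0% and 50%), Sdhaf4 (0% and 43.2%), Nnat (0% and 42.0%) and Mef2d (11.4% and 48.8%). Timp3 inhibits metalloproteinases, and Hoxb9 and Mef2d are transcription factors. Adjusted p-values by Fisher's exact test were between 1.6e-18 (Tmem160) and 1.7e-02 (Mef2d). With both classes summed no gene of the 12 passed the threshold, and Mef2d, the exception, had no incomplete splice match of 1 exon in either library (adjusted p = 1.6e-01 by Fisher's exact test).

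**Figure D4:**
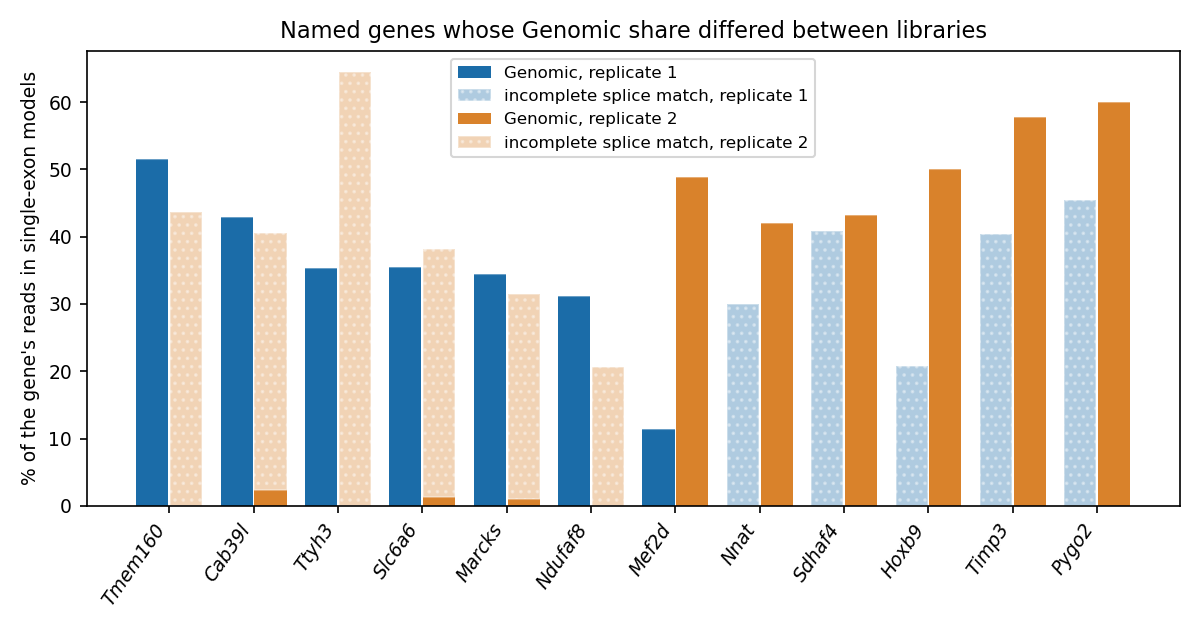
Percent of each gene's reads (y axis) in single-exon models of class Genomic (solid) and of incomplete splice matches (dotted, stacked) for the 12 named genes, replicate 1 in blue and replicate 2 in orange. In 11 genes the class with most of these reads switches between libraries, as in Tmem160 with 51.5% Genomic in replicate 1 and 43.7% incomplete splice match in replicate 2. Mef2d has Genomic reads alone in both.

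The 7 genes that passed with both classes summed included Star, Gabarapl1, Slc25a5, Sdc3, Scp2 and Cib1. Sdc3, a cell surface proteoglycan, had 36.5% and 55.8%. Scp2, a sterol carrier protein, had 19 of 180 reads in replicate 1 and 0 of 307 in replicate 2, and Cib1 had 10 of 43 and 0 of 65. Adjusted p-values by Fisher's exact test were 1.1e-05 for Scp2, 7.5e-04 for Slc25a5 and between 3.5e-03 and 2.8e-02 for Gabarapl1, Star, Sdc3 and Cib1. Across the genes tested, shares of the libraries had a Pearson r of 0.801 and a Spearman rho of 0.309 by class Genomic over 2695 genes, and 0.872 and 0.544 with both classes over 3351 genes. These are correlations across genes, which are not independent replicates.

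Genes with longer last exons had higher shares. Over 3731 genes of 2 or more exons with at least 20 reads in each library, the median share was 0.298% where the last exon was 10 to 459 bases long and 1.26%, 2.17% and 3.64% in the next quartiles of length. With both classes summed the medians were 1.49%, 2.41%, 3.63% and 5.34%. The share of genes with a member was 13.3% in the shortest quartile and 33.3% in the longest. Spearman's rho between last exon length and mean share was 0.367 across genes. Gene length and read depth were not held fixed in this description.

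**Figure D5:**
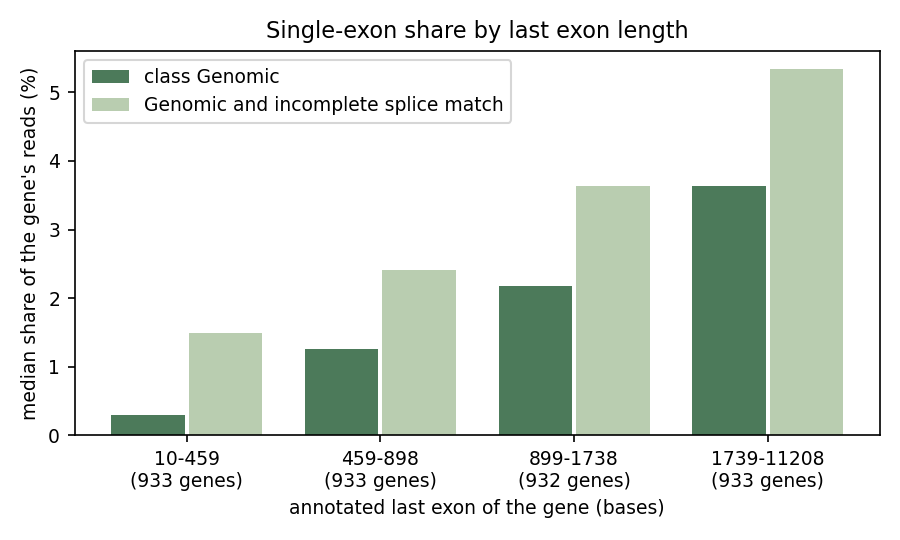
Median share of a gene's reads in single-exon models (y axis, percent, mean of both libraries) in quartiles of annotated last exon length (x axis, bases), by class Genomic (dark) and with incomplete splice matches added (light). The median by class Genomic is 0.298% in the shortest quartile and 3.64% in the longest.

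Among 20 steroidogenic genes, 11 had a member, all of them among the 19 with at least 20 reads in each library. Over all genes with that many reads, 885 of 3925 had a member. Of 16 tested genes 5 passed the threshold, beside 3.71% of all genes tested. Both counts depend on how many reads a gene has, and read depth was not matched. Nothing is therefore read from these differences. The 5 were Star, Hsd3b1, Nr5a1, Lipe and Mrap, of which Star also passed with both classes summed. Hsd3b1 had 0 incomplete splice matches of 1 exon in both libraries, so its shares were the same by either measure. Its adjusted p by Fisher's exact test was 1.1e-02 over the 2695 genes tested by class Genomic. With both classes, over 3351 genes tested, it was 9.1e-02. Lipe, the hormone-sensitive lipase, had 0 of 90 and 22 of 187 reads in class Genomic, and Mrap, the accessory protein of the ACTH receptor, had 10 of 301 and 0 of 337. The median share of the list was 3.52%. Its highest members after Star and Hsd3b1 by reads included Scarb1, the HDL receptor, with 3.49% and 3.54%. Not all highly read genes of the list had members. Akr1c18, a progesterone-inactivating enzyme, had 0 single-exon Genomic reads of 2870 and 5385, and Akr1b7, an aldose reductase relative, had 0 of 773 and 4 of 766.

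Among 25 chromaffin genes, 7 had a member, all of them among the 11 with at least 20 reads in each library. Over all genes with that many reads, 885 of 3925 had a member. Of 9 tested genes 4 passed the threshold, namely Th, Chgb, Scg2 and Pcsk1n, beside 3.71% of all genes tested. Here too read depth was not matched, and nothing is read from these differences. None of the 4 passed with both classes summed (adjusted p = 1.0 for each by Fisher's exact test). Th, the first enzyme of catecholamine synthesis, had 0 of 842 and 17 of 1206 reads in class Genomic, but 1.07% and 1.41% with both classes. Pnmt, which makes adrenaline, had 8.42% and 5.10%. The median share of the list was 0.971%. Npy had 1 single-exon Genomic read of 201 and 0 of 350, and Dbh 2 of 103 and 0 of 166.

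Of the other lists, that of nuclear RNAs stood on few reads, with 4 genes at 20 or more reads in each library. Of 33 splicing factor genes 27 had that many reads. A member was found in 11 of the 33, all but Ddx17 among the 27, and 1 of 22 tested passed. Over all genes these values were 885 of 3925 and 3.71%, with read depth not matched. The list's median share was 2.88%. Snrnp70, a protein of the U1 particle, had 21.2% and 17.7%. Of 15 nuclear RNA genes 12 had reads and 5 had a member, namely Meg3, Rian, Xist, Tsix and Snhg14. Of these only Meg3 had at least 20 reads in each library. The list's median share was 0%, and 0 of 1 tested passed. Meg3, an imprinted RNA, had 11 of 118 and 47 of 336 reads in such models. Malat1 (59 and 165 reads) and Neat1 (90 and 202 reads) had none. All genes with at least 20 reads in each library had a median share of 1.52%.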

How the data were processed

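The deposited tables give counts, whole reads per transcript model of 1 library, per the file headers; the authors processed each library on its own, on build mm10 with the GENCODE M21 annotation, per the labels and the models' annotation files, which name TALON as the source of new models. Sources used here do not name the aligner or the program versions. Replicate 1 held 426150 reads and replicate 2 held 770041. Boundaries came from the deposited annotations, annotated exons from GENCODE M21, and sequence from its transcripts, since genome sequence was not used here. The members and lists were chosen with earlier results of these data known.

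Each model was placed by the class (last exon, other exon, intron, past the end, before the start) that held most of its bases, exons being the union over the gene's annotated transcripts. Shares were the gene's single-exon Genomic reads over all its reads, compared between libraries by Fisher's exact test (scipy 1.17.1) with Benjamini-Hochberg adjustment, checked on simulated counts. Intervals are 95% Wilson intervals, and 0 reads allow up to 3; both cover counting error only. Other settings tried were read minimums, placement by the end base, a stricter annotation, test minimums, other denominators and leaving out a library. Python 3.11.15, pandas 2.3.3 and matplotlib 3.10.9 were used.

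Named genes were the 10 with the most member reads; the 8 highest each among genes with reads mostly in an intron, in the last exon and past the end; the 8 highest shares in genes with at least 20 reads in each library; up to 6 with the largest difference in each direction past the threshold; and members of the 4 lists. Sdc3, Scp2, Cib1, Map3k13, Lyrm4, Clock and the list genes without a member were named after their values were seen. Some genes that the rule names are not reported here.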

Additional observations from a re-analysis of the deposited data

Results flagged for a closer look

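Reads were also present in data the comparisons did not use. Class Genomic models of 2 or more exons in annotated genes, which the choice of members left out, held 400 reads in replicate 1, in 189 models of 183 genes, and 660 reads in replicate 2, in 335 models of 313 genes. There are no control samples to set these values against. Groups of 2 libraries are too small to check a sample for standing apart.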

How the results depend on the processing

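The number of members depended on the read minimum. Genes were 1466, against 2814 with a minimum of 3 reads, 524 with 10, 454 with 5 reads in both libraries, 851 with the minimum of replicate 2 scaled by depth, and 638 to 1282 when either library was left out. Models were 2002, against 3993, 714, 318, 1222, and 654 to 1348 under the same settings. Last exons kept the most reads under every placement setting run. Their mean share, 80.1%, was 83.5% placed by the end base, 78.8% without retained-intron and nonsense-mediated-decay transcripts, 81.1% with 10 reads, 72.7% with no minimum, 83.5% in protein-coding genes and 77.9% in models of 50 or more bases, an alternative added after seeing the data. In that order introns, 14.2%, held 9.60%, 15.5%, 13.2%, 21.7%, 12.6% and 15.7%, and sequence past the end, 2.79%, held 4.75%, 2.99%, 3.16%, 2.29%, 1.85% and 3.15%. Leaving out either library gave 79.8% to 80.3%, 13.9% to 14.4% and 2.66% to 2.92%. The share of gene reads, 4.42%, was 2.48% by models of 5 or more reads, 5.67% with Cyp11a1 included and 5.93% with single-exon incomplete splice matches added, and 4.36% to 4.48% without a library. Signals, 80.7% as the mean of the libraries, were found in 65.8% for AATAAA alone, 77.1% in the last 35 bases and 82.3% weighted by reads, and in 79.8% to 81.6% without a library. Runs of A after the end, 13.2% as the mean of the libraries, were between 6.30% and 18.9% over all settings. The 100 genes whose share differed were 234 of 885 by models of 5 or more reads, 7 with both classes summed, and 87 to 95 under the other settings. For the 67 named genes with reads in both libraries, shares were counted as moved where they shifted by at least the spread between libraries. This held for 14 by models of 5 or more reads, 23 against annotated transcript reads (over 1.5 times higher in Hsd3b1, Nckap5, Nr5a1, Cyb561, Meg3, Srsf1, Srsf5, Hnrnpa2b1 and Sf1) and 11 with both classes. Each count includes AC154200.1, Gm37401, Gm43126 and Gm26724, which had a spread of 0 and stayed at 100%. The counts against annotated transcript reads and with both classes also include Snhg14, which likewise stayed at 100%. No paired analysis was possible because there is 1 group of 2 libraries. The causes of these shifts were not tested. Replicate 2 had 1.79 times the annotated-gene reads of replicate 1.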
